A study of Homo sapiens with 12 samples.

Results

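The 46 genes described here carry out antigen presentation and the interferon response. They were taken by name from the 29696 genes of the deposited expression table, and all their m6A peaks were taken from the peak lists of the same cells. The rule used gene names only, but the members and the lists of other genes were chosen with earlier results of these data known. They fall into 7 roles: class I chains, peptide supply and loading, transactivators and class II, interferon receptors and kinases, transcription factors, interferon-induced effectors, and PD-1 ligands.

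The cells were A375, a human melanoma line, infected with a lentivirus that expressed either a short hairpin RNA against ALKBH5 (shALKBH5, ALKBH5 knockdown in the labels) or a control hairpin (shCtrl, wild type in the labels). ALKBH5 is an enzyme that removes N6-methyladenosine (m6A) from mRNA. Each group had 3 input libraries, whose RNA was sequenced as it was, and 3 IP libraries of fragments precipitated with an m6A antibody. The study's methods give 48 h after infection as the time of harvest for RNA-Seq and do not name the hairpin of these libraries, and the labels give no further treatment for either group.

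Class I molecules, built of an HLA heavy chain and B2M, show peptides from inside the cell to cytotoxic T cells. The immunoproteasome cuts the peptides, the TAP transporter carries them into the endoplasmic reticulum, and tapasin (TAPBP) helps to load them. Class II molecules show peptides to helper T cells and are made mostly by professional antigen-presenting cells, but many melanomas make them too. CIITA is the master transactivator of class II genes, and NLRC5 is its counterpart for class I genes. Interferons bind receptors coupled to the kinases JAK1, JAK2 and TYK2, and the STAT and IRF factors then switch on genes through short promoter elements.

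Expression values were FPKM, fragments scaled for gene length and for the size of the library, with no read counts, so the depth is unknown. FPKM summed to 221946 to 223231 in the shALKBH5 libraries and 212760 to 218966 in the shCtrl libraries. ALKBH5 itself averaged 3.48 ± 0.41 FPKM in shALKBH5 and 18.2 ± 0.962 FPKM in shCtrl (SD, n = 3 each). SOX10, a melanoma lineage factor, was between 179 and 192 FPKM in all 6 libraries, whereas DCT and TYR, enzymes of pigment synthesis, were near 0. The 7 listed markers of the melanoma and melanocyte lineage summed to 267 to 271 FPKM in shALKBH5 and 216 to 226 FPKM in shCtrl, without overlap. Most of that difference was in S100B, at 82.1 ± 3.03 against 32.9 ± 1.35 FPKM (SD, n = 3 each), and S100A1 (log2 fold change 1.21) and MITF (0.63) were also called higher. The MITF groups overlapped, and its call (limma, adjusted p = 0.0475) was lost with no filter on low values (adjusted p = 0.126). Of 8 leukocyte markers 3 were listed, none reached a mean of 0.5 FPKM, and their summed level was 0.258 to 0.374 FPKM in shALKBH5 and 0.17 to 0.213 FPKM in shCtrl. The 5 fibroblast markers summed to 5.55 to 6.72 against 8.77 to 9.71 FPKM and did not move as a group, since PDGFRB fell (7.25 to 2.73 FPKM) and LUM rose (1.16 to 2.61 FPKM). Endothelial markers summed to 0.242 to 0.249 against 0.298 to 0.388 FPKM, and the 1 listed keratinocyte marker lay at 0.242 to 0.526 against 0.83 to 1.07 FPKM. The part of these levels in the results below was not tested, and in bulk RNA fewer cells of a type and less RNA per cell cannot be told apart.

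The sequences that interferon acts on are shown first, because members that hold them moved both ways. The interferon-stimulated response element was searched as TTTC, any 2 bases and TTTC on both strands, from 250 bases before to 50 bases after each start site in the RefSeq promoter table (GRCh38.p14), which holds 36 of the 46 members. It was found in 27 of their 52 windows (51.9%), from 23 genes, against 3.57% of all 35116 windows. The stretches of 30 bases below are written 5′ to 3′ on the strand of the gene, with a match in capitals. TAPBP, TAP1 and ISG20 rose in shALKBH5 cells, PSMB10, OAS3 and IFI44 fell, and B2M and MX1 were not called. The TAPBP, TAP1 and B2M stretches each hold a further match that overlaps the capitals and lies partly in lower case.
TAPBP (chr6:33314079-33314108, - strand): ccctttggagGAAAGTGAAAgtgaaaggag
TAP1 (chr6:32853819-32853848, - strand): aggcggccgcTTTCGATTTCgctttcccct
ISG20 (chr15:88638937-88638966, + strand): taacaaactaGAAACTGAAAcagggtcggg
PSMB10 (chr16:67936852-67936881, - strand): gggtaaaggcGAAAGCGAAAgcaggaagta
OAS3 (chr12:112938452-112938481, + strand): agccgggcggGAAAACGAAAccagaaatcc
IFI44 (chr1:78649761-78649790, + strand): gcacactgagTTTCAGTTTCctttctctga
B2M (chr15:44711369-44711398, + strand): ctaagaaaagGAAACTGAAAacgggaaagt
MX1 (chr21:41420559-41420588, + strand): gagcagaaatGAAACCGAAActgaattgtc

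Among the 23 members with this element, 7 rose, 3 fell, 10 were not called and 3 were too low to test. The 7 are 35% of the 20 tested, near the 34.7% of all genes that were higher by the same test. The 3 that fell are 15%, against 26.2% of all genes. The gamma-activated site, searched as TTCNNNGAA on both strands, was found in 11 of the 52 windows (21.2%) against 7.66% of all windows, and in IFI27, BST2 and MX1 it shared letters with the first element. Of its 10 member genes, TAP1, OAS1 and IFI35 rose, none fell, 6 were not called and 1 was not tested. The 3 are 33.3% of the 9 tested, again near the 34.7% of all genes, while 0% fell, against 26.2% of all genes. A match in these windows is a description of the letters and not a measured binding site.

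In input RNA, 19 of the 41 members that could be tested were higher in shALKBH5 than in shCtrl cells, 6 were lower and 16 were not called (limma on log2(FPKM + 0.1), a mean FPKM of 0.5 or more, two-sided, adjusted p under 0.05). Over all 12985 genes tested the same rule called 61.0%, 34.7% higher and 26.2% lower. Of the tested members 61% were called in either direction, the background share, with more calls on the higher side. The median log2 fold change was 0.17 over the tested members and 0.09 over all genes. ERAP2, JAK2, IFIT1, IFI27 and PDCD1LG2 were below the filter. When each library was rescaled by its median ratio to the geometric mean, 16 members were higher and 10 lower, and all genes split into 29.2% higher and 30% lower. The median log2 fold change was then 0.10 over the members and 0.02 over all genes.

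Larger changes were fewer. At a log2 fold change of at least 0.5, 12 members rose and 3 fell, where the background was 18.5% higher and 15.8% lower of all genes. The 3 that rose by at least 1, TAPBP, CIITA and HLA-DRA, compare with 5.41% of all genes. The groups did not overlap for 26 tested members, against 67.0% of all genes. They were 19 with the higher and 7 with the lower values in shALKBH5, against 38.0% and 29.0% of all genes. An exact permutation test of any member cannot give a two-sided p below 0.1 with 3 libraries against 3.

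**Figure D1:**
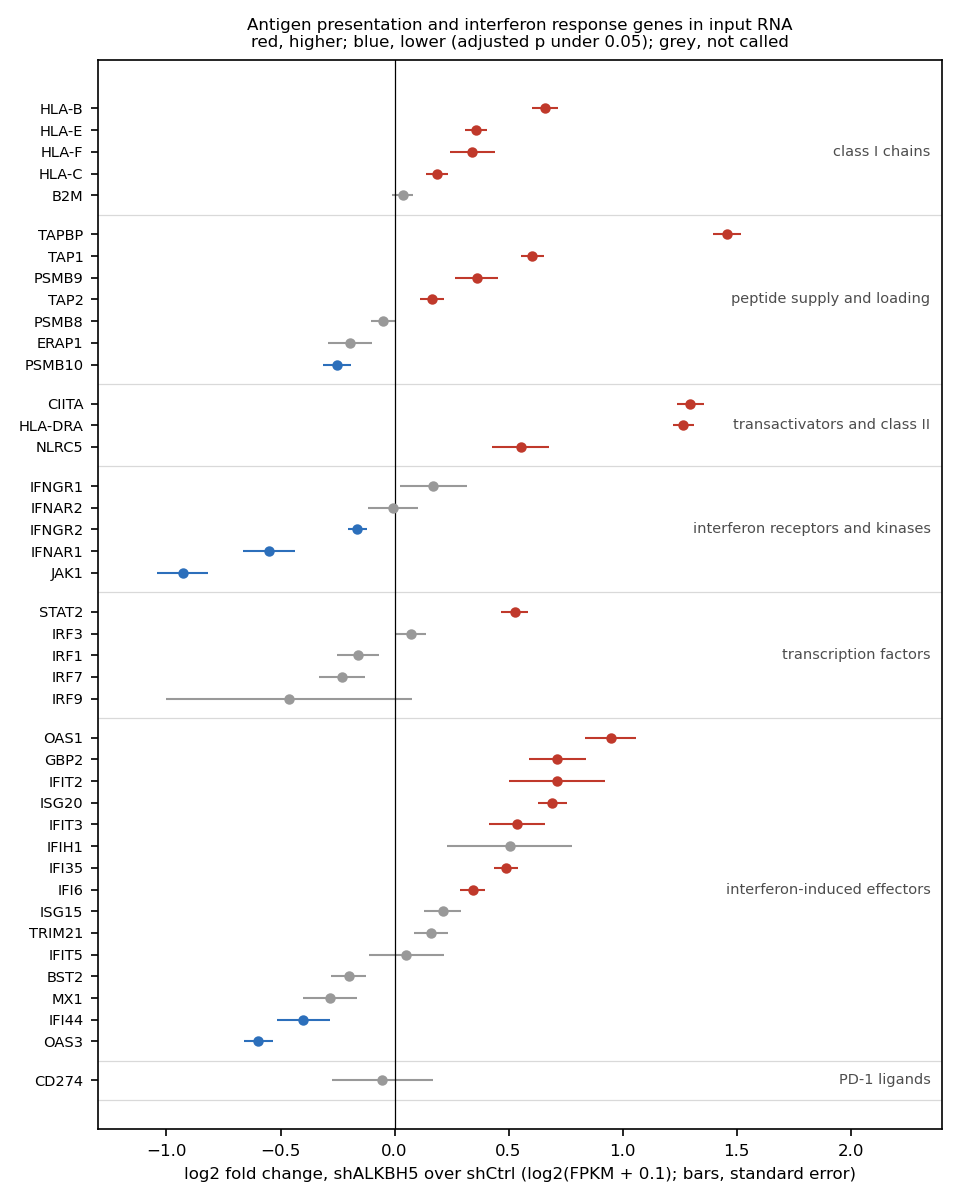
Log2 fold change of the 41 tested members, shALKBH5 over shCtrl on the log2(FPKM + 0.1) scale, with standard errors, grouped by role. Red points are the 19 members called higher, blue points the 6 called lower and grey points the 16 not called. TAPBP at 1.46 and JAK1 at -0.93 mark the ends of the range.

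The class I chains rose except for B2M. This is 4 of 5 called higher (80%), where the share of all genes was 34.7%. HLA-B (ENSG00000234745), a classical heavy chain that presents peptides to CD8 T cells, was at 32.9, 32.9 and 36.8 FPKM in replicates 1, 2 and 3 of shALKBH5 and at 22.4, 20.9 and 21.4 FPKM in those of shCtrl. All shALKBH5 libraries were above all shCtrl libraries, with a log2 fold change of 0.66 (SE 0.0566, limma, adjusted p = 5.15e-05). HLA-E, a nonclassical chain seen by NKG2 receptors of natural killer cells, rose by 0.36 on the log2 scale, from a mean of 39.6 ± 1.46 to 50.7 ± 2.28 FPKM (SD, n = 3 each). HLA-F rose by 0.34 at a low level, 1.09 ± 0.0466 to 1.41 ± 0.0687 FPKM (SD, n = 3 each). HLA-C rose by 0.19, the least of the 4 heavy chains, and lost its call after rescaling (0.11).

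B2M, the light chain shared by all class I molecules, had the highest FPKM of the role. It lay at 79.1, 82.2 and 77.1 FPKM in shALKBH5 and 73.7, 77.9 and 81.2 FPKM in shCtrl. The groups overlapped, and the log2 difference was 0.04 (SE 0.047, limma, adjusted p = 0.54). The summed FPKM of HLA-B, HLA-C, HLA-E and HLA-F was 121 ± 5.85 in shALKBH5 and 92.5 ± 3.16 in shCtrl (SD, n = 3 each). In shCtrl cells HLA-C stood above HLA-B in FPKM in every library, whereas in shALKBH5 cells their ranges overlapped. Heavy chain genes share sequence, and the listed span of HLA-B (chromosome 6, 31269491 to 31357188) overlaps that of HLA-C by 2640 bases on the same strand, so reads may have been split between them. HLA-F lost its call without shALKBH5 replicate 1 (0.34) or replicate 3 (0.31) and after rescaling (0.27).

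Genes of peptide supply and loading moved unequally, with 4 of 7 tested higher and 1 lower, where the shares of all genes were 34.7% and 26.2%. TAPBP, encoding tapasin, showed the largest log2 fold change of all tested members. It was at 15.8, 15.2 and 17.1 FPKM in shALKBH5 and at 5.77, 5.55 and 6.01 FPKM in shCtrl, and no shALKBH5 library came near the control range. Its log2 fold change was 1.46 (SE 0.0618, limma, adjusted p = 2.01e-06), a 2.78-fold ratio of means. TAP1, a subunit of the peptide transporter, was at 13.9, 13.4 and 14.7 FPKM in shALKBH5 and at 9.18, 8.9 and 9.37 FPKM in shCtrl, a log2 fold change of 0.60 (SE 0.0523, limma, adjusted p = 5.35e-05). The groups did not overlap. TAP2, the other subunit, rose by only 0.16 (adjusted p = 0.029). It lost its call after rescaling (0.09). The call was also lost when any library but shCtrl replicate 1 was left out, where TAP2 lay between 0.13 and 0.18.

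The 3 catalytic subunits of the immunoproteasome went different ways. PSMB9 rose by 0.36 on the log2 scale and PSMB10 fell by 0.25. PSMB8, with the highest mean FPKM of the role, lay at 11.3, 11.5 and 11.4 FPKM in shALKBH5 and at 12.3, 11 and 12 FPKM in shCtrl, so that the groups overlapped. PSMB9 lost its call without shALKBH5 replicate 3 (0.31). Their constitutive counterparts also differed: PSMB5 rose by 0.30, PSMB6 fell by 0.17, and PSMB7 showed a log2 difference of 0.01. The 3 immunoproteasome subunits made up 6.23 ± 0.0757% of the summed FPKM of all 6 in shALKBH5 and 6.74 ± 0.182% in shCtrl (SD, n = 3 each), with no overlap between the groups. ERAP1, which trims peptides, was 5.78 ± 0.358 FPKM in shALKBH5 and 6.65 ± 0.831 FPKM in shCtrl and was not called. ERAP1 was called lower without shCtrl replicate 1 (-0.28) and after rescaling (-0.27). With each library left out in turn it lay between -0.28 and -0.10. ERAP2, at 0.106, 0.202 and 0.095 FPKM against 0.203, 0.282 and 0.249 FPKM, was not tested. The span of PSMB9 overlaps TAP1 by 8770 bases and PSMB8 by 544 bases on the opposite strand. Whether counting used strand is not given in the sources used here.

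Both transactivators and HLA-DRA rose, where 34.7% of all genes were higher and 5.41% were higher by at least 1 on the log2 scale. HLA-DRA (ENSG00000204287, chromosome 6, 32439878 to 32445046, + strand), the invariant alpha chain of HLA-DR, was the most highly expressed member. It stood at 404, 422 and 452 FPKM in shALKBH5 and at 175, 177 and 179 FPKM in shCtrl. The log2 fold change was 1.27 (SE 0.0462, limma, adjusted p = 1.13e-06), and every shALKBH5 library was well above every control. CIITA (ENSG00000179583, chromosome 16, 10866222 to 10943021, + strand) was at 10.4, 10.6 and 11 FPKM in shALKBH5 and at 4.55, 4.13 and 4.19 FPKM in shCtrl. Its log2 fold change was 1.30 (SE 0.059, limma, adjusted p = 2.81e-06), again without overlap. NLRC5 was at 1.02, 0.977 and 0.993 FPKM against 0.608, 0.637 and 0.702 FPKM, a log2 fold change of 0.55 (SE 0.123, limma, adjusted p = 0.0062). NLRC5 thus stayed at a low level in both groups.

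**Figure D2:**
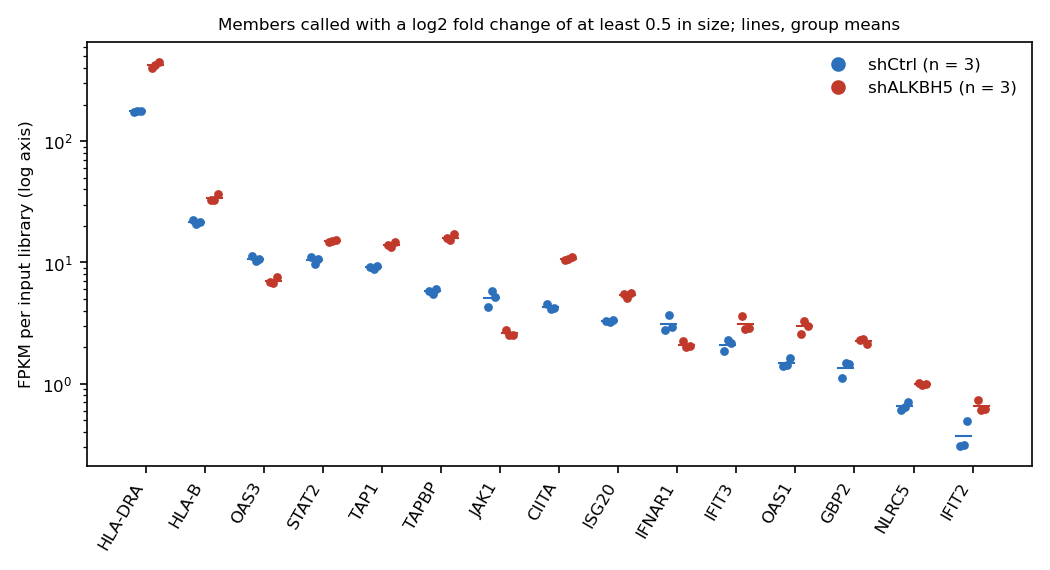
FPKM of each input library, on a log axis, for the 15 members called with a log2 fold change of at least 0.5 in size, ordered by the shCtrl mean. Blue points are shCtrl, red points shALKBH5 and short lines the group means. HLA-DRA lies above all others in both groups, and OAS3, JAK1 and IFNAR1 are the members whose red points lie below the blue.

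The other class II genes of a separate list, also chosen with earlier results known, moved with HLA-DRA. All 12 tested class II chains and helpers were higher in shALKBH5, by 0.46 to 1.10 on the log2 scale, with a median of 0.93. Of all genes 34.7% were higher by this test and 18.5% by at least 0.5, and their median was 0.09. HLA-DMB, which forms the peptide editor HLA-DM with HLA-DMA, rose from 5.55, 5.41 and 5.35 FPKM to 11.3, 11.9 and 12.1 FPKM (log2 fold change 1.10, SE 0.0503, limma, adjusted p = 2.94e-06). HLA-DPA1, HLA-DRB1, HLA-DMA and HLA-DQB1 had log2 fold changes of 1.07, 1.05, 1.01 and 1.00. HLA-DQA1 was below the filter at 0.466 ± 0.0733 FPKM in shALKBH5 and 0.163 ± 0.0204 FPKM in shCtrl (SD, n = 3 each), without overlap. With no filter its log2 fold change was 1.10 (limma, adjusted p = 0.0066). HLA-DRB1 and HLA-DRB5 are near-identical copies, and reads may have been split between them.

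CD74, the invariant chain that guards the class II groove, was at 449, 440 and 489 FPKM in shALKBH5 and at 282, 264 and 258 FPKM in shCtrl. The FPKM ratio of HLA-DRA to CD74 was 0.928 ± 0.0302 in shALKBH5 and 0.661 ± 0.0373 in shCtrl (SD, n = 3 each), so that HLA-DRA differed more than CD74 did. CD74 was named after its values were seen. The promoter factors that work with CIITA did not move as a group: of 6, RFXANK rose by 0.30, NFYC fell by 0.26, NFYB fell by 0.36, and 3 were not called. Of all genes 61.0% were called, 34.7% higher and 26.2% lower. NFYB lost its call without any library but shCtrl replicate 3 (-0.37 to -0.32).

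**Figure D3:**
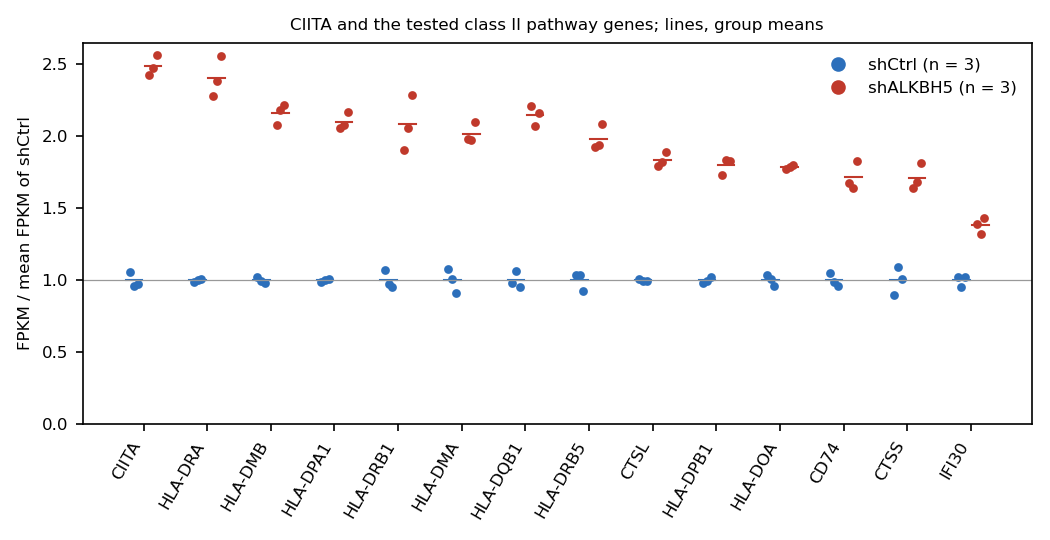
FPKM of each input library divided by the mean FPKM of shCtrl, for CIITA, HLA-DRA and the 12 tested class II genes of the separate list. Blue points are shCtrl, red points shALKBH5 and short lines the group means. Every red point lies above every blue point of the same gene.

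The letters near class II start sites are shown because all of these genes moved one way. The inverted CCAAT box (the Y box that the NF-Y factor binds) was searched as ATTGG on both strands, a motif added after the values were seen. It was found in 9 of 11 windows (81.8%) of class II chain, HLA-DM, HLA-DO and CD74 genes, against 34.6% of all windows and 26.9% of the 52 member windows. Of the 13 tested members that hold it 61.5% rose and 7.69% fell, against 34.7% and 26.2% of all genes. The interferon-stimulated response element was found in 0 of these 11 windows. The gamma-activated site was found in 1 of them, that of HLA-DQA1 (9.09%), against 7.66% of all windows. CIITA, NLRC5 and HLA-DRA are among the 10 members for which no window is shown. Capitals mark the match.
HLA-DRB1 (chr6:32589877-32589906, - strand): actcagatgctgATTGGttctccaacacga
HLA-DRB5 (chr6:32530360-32530389, - strand): actcagatgctgATTGGttctccaacacga
HLA-DQB1 (chr6:32666728-32666757, - strand): gctccagtgctgATTGGttcttttccgagg
HLA-DPB1 (chr6:33075879-33075908, + strand): agctcagtgtccATTGGttcttttctcaga
HLA-DMA (chr6:32953159-32953188, - strand): tacgcttctctgATTGGtttagacaaaatg
HLA-DOA (chr6:33009641-33009670, - strand): agaatttctgtgATTGGctgaagacagcag
CD74 (chr5:150412946-150412975, - strand): ggccctgggcagCCAATgggatcgtgctgg

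Of the interferon receptors and their kinases 3 of the 5 tested fell, JAK1, IFNAR1 and IFNGR2, and none rose, where 26.2% of all genes were lower. IFNAR2 and IFNGR1 were not called, and JAK2 was not tested. JAK1, the kinase used by receptors of both interferon types, was at 2.79, 2.51 and 2.52 FPKM in shALKBH5 and at 4.32, 5.77 and 5.14 FPKM in shCtrl. The groups did not overlap, and the log2 fold change was -0.93 (SE 0.111, limma, adjusted p = 0.00027). IFNAR1, a chain of the type I receptor, was at 2.25, 2.01 and 2.04 FPKM against 2.79, 3.66 and 2.96 FPKM, a log2 fold change of -0.55 (SE 0.113, limma, adjusted p = 0.0041). Its partner IFNAR2 was 2.89 ± 0.268 and 2.91 ± 0.339 FPKM (SD, n = 3 each), and the groups overlapped.

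Of the interferon gamma receptor, IFNGR2 had the highest FPKM of the role. It was at 20, 20.6 and 21.5 FPKM in shALKBH5 and at 23.5, 22.8 and 23.3 FPKM in shCtrl, a fall of 0.16 on the log2 scale that lost its call without shALKBH5 replicate 1 (-0.14). IFNGR1 was 1.89 ± 0.326 and 1.65 ± 0.18 FPKM (SD, n = 3 each) and was not called. JAK2 was below the filter at 0.342, 0.328 and 0.331 FPKM against 0.286, 0.375 and 0.225 FPKM, and the groups overlapped. TYK2, of the separate list, was not called either, so that JAK1 was the kinase that fell while the others were not called or not tested.

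Of the 5 transcription factors STAT2 was called, higher in shALKBH5, and the other 4 were not. This is 20% called, against 61.0% of all genes. STAT2, which acts with IRF9 in type I interferon signalling, was at 14.8, 15.2 and 15.4 FPKM in shALKBH5 and at 11.1, 9.73 and 10.7 FPKM in shCtrl. The groups did not overlap, and the log2 fold change was 0.53 (SE 0.058, limma, adjusted p = 0.00018). IRF3, which responds to nucleic acid sensing, had the highest mean FPKM of these factors. It lay at 14.4, 14.1 and 14.2 FPKM in shALKBH5 and at 14.9, 12.7 and 13.1 FPKM in shCtrl, and the groups overlapped.

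IRF9 was at 0.357, 0.827 and 0.865 FPKM in shALKBH5 and at 0.61, 2.3 and 0.53 FPKM in shCtrl, where replicate 2 stood far above the rest. Its log2 difference was -0.46 with that library and 0.15 without it. IRF3 was called higher without shCtrl replicate 1 (0.14) and turned to -0.00252, not called, after rescaling. IRF7 was called lower without shALKBH5 replicate 3 (-0.31) and after rescaling (-0.30).

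Of 15 interferon-induced effectors tested, 7 rose, 2 fell and 6 were not called. The 60% called lay near the 61.0% of all genes. OAS1, which makes the second messenger that activates RNase L, was at 2.59, 3.32 and 3.01 FPKM in shALKBH5 and at 1.41, 1.43 and 1.63 FPKM in shCtrl. The groups did not overlap, and the log2 fold change was 0.95 (SE 0.112, limma, adjusted p = 0.00026). OAS3, its neighbour on chromosome 12 and an enzyme of the same reaction, was at 6.95, 6.75 and 7.56 FPKM against 11.3, 10.4 and 10.6 FPKM, a log2 fold change of -0.60 (SE 0.0631, limma, adjusted p = 0.00014). These adjacent genes of the OAS family therefore changed in opposite directions.

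ISG20, an exonuclease that degrades viral RNA, was at 5.46, 5.09 and 5.58 FPKM against 3.31, 3.22 and 3.32 FPKM, a log2 fold change of 0.69 (SE 0.0619). GBP2, a guanylate-binding protein, was at 2.29, 2.33 and 2.13 FPKM against 1.11, 1.47 and 1.45 FPKM, a log2 fold change of 0.71 (SE 0.123). In neither gene did the groups overlap. IFIT3, of a family that binds viral RNA, was at 3.61, 2.85 and 2.86 FPKM against 1.85, 2.3 and 2.15 FPKM, a log2 fold change of 0.54. IFIT2, of the same family, was at 0.733, 0.613 and 0.622 FPKM against 0.304, 0.31 and 0.49 FPKM. Its log2 fold change of 0.71 had an SE of 0.211, and it lost its call when shALKBH5 replicate 1 or 3 or shCtrl replicate 1 or 2 was left out (0.62 to 0.74).

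IFI6 was the most highly expressed effector at 30.5, 31 and 30 FPKM against 25.9, 22.5 and 23.9 FPKM, and rose by 0.34. IFI35 rose by 0.49. IFI44 fell by 0.40, a call lost without shALKBH5 replicate 2 (-0.39) or 3 (-0.35) or without shCtrl replicate 3 (-0.31).

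Of the effectors that were not called, ISG15, a ubiquitin-like protein, was 8.66 ± 0.752 FPKM in shALKBH5 and 7.46 ± 0.526 FPKM in shCtrl, and MX1, a GTPase that blocks viruses, was 0.89 ± 0.0927 and 1.1 ± 0.0103 FPKM (SD, n = 3 each). MX1 libraries did not overlap and were the lower in shALKBH5. ISG15 was called higher without shALKBH5 replicate 2 (0.28), TRIM21 without shCtrl replicate 1 (0.23) and IFIH1 without shCtrl replicate 2 (0.75), while BST2 was called lower without shALKBH5 replicate 2 (-0.26) or shCtrl replicate 1 (-0.24). BST2 and MX1 were also called lower after rescaling. IFIH1 was at 0.51 with all libraries and between 0.33 and 0.75 with each left out in turn. IFIT1 and IFI27 were below the filter. IFIT1 was at 0.46, 0.386 and 0.329 FPKM against 0.304, 0.5 and 0.396 FPKM, and IFI27 was at 0.0632 FPKM or less in every library.

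Of the PD-1 ligands, which restrain T cells, CD274 (PD-L1) was at 0.398, 0.612 and 0.492 FPKM in shALKBH5 and at 0.4, 0.544 and 0.628 FPKM in shCtrl. The groups overlapped, with a log2 difference of -0.05 (SE 0.222, limma, adjusted p = 0.85). PDCD1LG2 (PD-L2) was at 0.506, 0.429 and 0.556 FPKM against 0.228, 0.353 and 0.341 FPKM. All shALKBH5 libraries were above all shCtrl libraries, but the gene was below the filter, and with no filter its log2 difference of 0.56 had an adjusted p of 0.099 (limma).

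Other genes of these pathways were taken from a list of 101, of which 98 were listed and 74 tested: 34 rose and 15 fell, against the same 34.7% and 26.2% of all genes. After rescaling 29 were higher and 21 lower. The largest rise was of LGALS3BP, a secreted glycoprotein, from 68.5, 64.9 and 66.2 FPKM to 193, 188 and 198 FPKM (log2 fold change 1.53, SE 0.038, limma, adjusted p = 3.18e-07). The largest fall was of SOCS3, a feedback inhibitor of JAK-STAT signalling, from 8.09, 8.05 and 7.46 FPKM to 1.86, 1.86 and 1.9 FPKM (log2 fold change -2.01, SE 0.0623, limma, adjusted p = 6.37e-07). Of 9 further genes of the proteasome and class I loading, 2 rose (22.2%) and 4 fell (44.4%), against 34.7% and 26.2% of all genes. CALR, CANX and PDIA3, chaperones that also help class I chains to fold, had log2 fold changes of -0.62, -0.59 and -0.37. STING1, an adaptor of DNA sensing, had a log2 fold change of -0.46 and fell as well. Of 30 other interferon-induced genes tested, 11 rose, 3 fell and 16 were not called. Their 36.7% higher lay near the background of 34.7%, and their 46.7% called lay below that of 61.0%.

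The m6A data are peaks that the authors called, 1 list per group with no value per library, so no peak difference has a replicate check. The shALKBH5 list held 114 peaks in 42 of the 46 members and the shCtrl list 108 peaks in 41. Of the tested members, 38 and 37 of 41 had a peak, against 87.1% and 86.5% of all tested genes. In all, 38 members had a peak in both lists. B2M, PSMB10, JAK2 and STAT2 had peaks in the shALKBH5 list only, and IRF1, IRF7 and IFI27 in the shCtrl list only. No cut on FDR was applied here, and the log10 FDR of these peaks ran from -0.627 (IFI27) to -52.8 (PSMB10). That of the B2M peak was -1.31, and the STAT2 peak was 1.38-fold. HLA-C had none, though the single HLA-B peak in each list ran over 84616 bases from the listed start of HLA-B, within HLA-C, to 31354106. Positions in the files match GRCh38, regions are as the authors label them, peak spans include introns, and a few members have near-duplicate peaks in 1 list.

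The 3'UTR held 66 of 114 member peaks in shALKBH5 (57.9%, 95% Wilson interval 48.7 to 66.6) and 58 of 108 in shCtrl (53.7%, 44.3 to 62.8). Over all genes the shares were 45.5% and 46.2%, but 19.1% and 18.1% of those peaks lay in noncoding exons, where the members had none. Without noncoding exons the shares of all genes were 56.2% and 56.4%, near those of the members. The 5'UTR held 21.1% and 18.5%. The intervals cover counting error only. At least 1 base of overlap on the same strand joined 88 of 114 shALKBH5 peaks (77.2%) and 89 of 108 shCtrl peaks (82.4%) to a peak of the other list, against 78.1% and 81.3% over all genes. The members' peaks were thus shared about as often as those of all genes.

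The fold enrichment of IP over input at 87 pairs of overlapping peaks in 38 members was lower in shALKBH5 at 56, higher at 30 and equal at 1. The median log2 difference was -0.18, and over 35571 pairs of all genes it was -0.07, with 56.2% lower. Among members that rose in input RNA, 35 of 48 pairs in 17 genes were lower (72.9%), where the share was 59.9% for all genes that rose. CIITA alone gave 12 of those 48 pairs. A shCtrl peak can serve more than 1 pair, as the CIITA peak at chr16:10933856-10934336 did, so pairs are not independent. Among members that fell, 3 of 7 pairs were lower, where the share was 54.3% for all genes that fell, and among those not called 52% of 25 pairs were lower against 54.9%. Input RNA is the denominator of the enrichment, so these quantities are not independent.

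**Figure D4:**
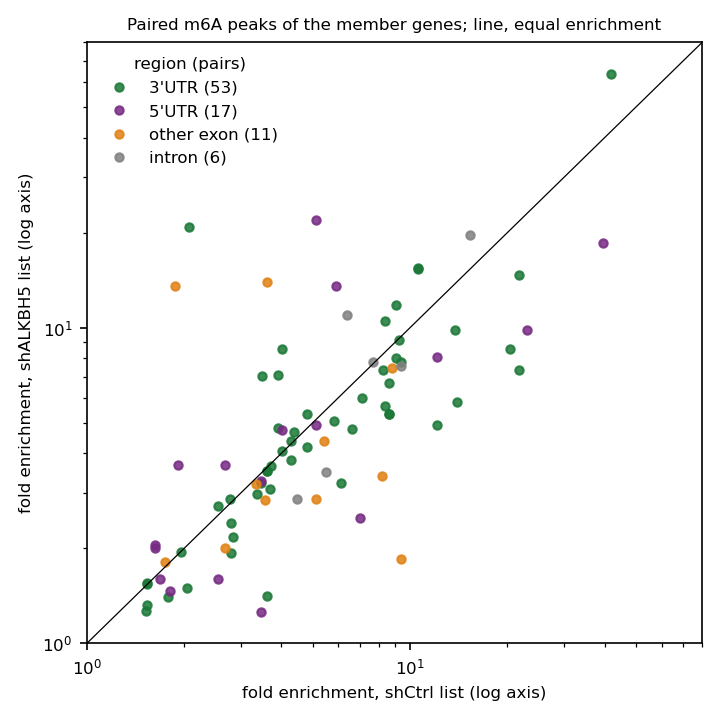
Fold enrichment of the 87 paired member peaks in the shALKBH5 list against the shCtrl list, both on log axes. Each point is a shALKBH5 peak with its most overlapping shCtrl peak, coloured by the region of the shALKBH5 peak, and the line marks equal enrichment. More points lie below the line (56) than above it (30), and a CIITA 3'UTR pair at 63.7 and 41.7 lies at the upper right.

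CIITA carried 13 peaks in each list, the most of any member. Its strongest peak lay in the 3'UTR near the end of the gene, at chr16:10941221-10942631 with 63.7-fold enrichment in shALKBH5 and at chr16:10941641-10942541 with 41.7-fold in shCtrl. The shALKBH5 span also covers a second shCtrl peak of 5.63-fold (chr16:10941221-10941581), so that 1 peak faces 2. On both sides of it the order turned. Just downstream, from position 10942691, the enrichment was 4.9-fold in shALKBH5 against 12.1-fold in shCtrl. Upstream, at chr16:10929027-10929537 the enrichment was 3.21-fold in shALKBH5 against 6.1-fold in shCtrl, and at chr16:10923196-10924888 it was 5.98-fold against 7.12-fold. In an exon outside the UTRs 1 shALKBH5 peak of 4724 bases (14-fold) faced 2 shCtrl peaks, of 3.62-fold and 20.7-fold. CIITA therefore had pairs that were higher and pairs that were lower in shALKBH5 within the same gene. The transcript that each peak belongs to is not given. The deposited table of differential peaks lists 4 CIITA peaks, at these places except the one just downstream of the strongest peak.

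**Figure D5:**
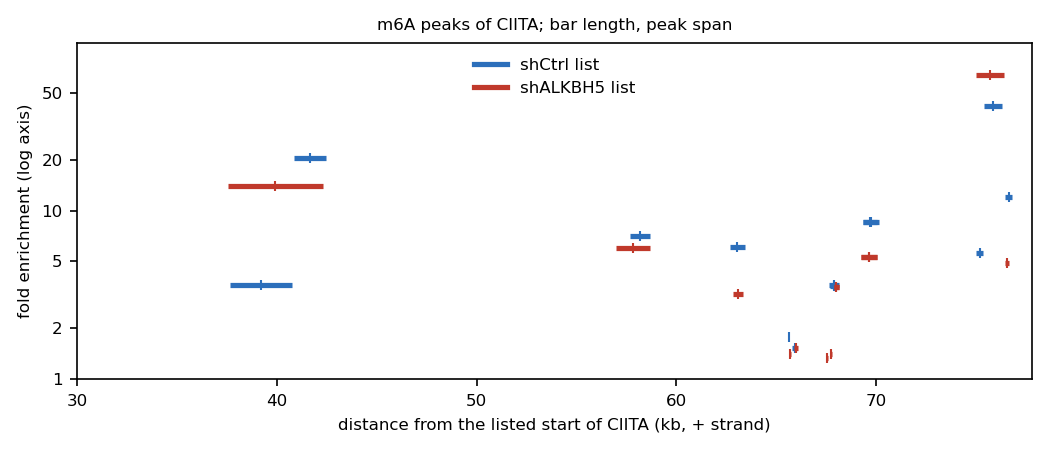
Peaks of CIITA by distance from its listed start in kb and by fold enrichment on a log axis. Bar length is the span of the peak, blue bars are the shCtrl list and red bars the shALKBH5 list. Near the end of the gene the highest red bar (63.7) lies above the highest blue bar (41.7), while at most of the other places blue lies above red.

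HLA-DRA, the member with the most RNA, had some of the weakest peaks, 1.6-fold and 1.27-fold in shALKBH5 and 1.68-fold and 1.52-fold in shCtrl. TAPBP had an exon peak outside the UTRs of 13.5-fold in shALKBH5 against 1.88-fold in shCtrl over a similar span of 8381 and 8111 bases, and the shCtrl list holds a further short peak of 7.66-fold within that shALKBH5 span. Its 3'UTR peak was 2.97-fold against 3.37-fold. In OAS1 a 3'UTR peak of 20.8-fold spanned 12931 bases in shALKBH5 and 180 bases at 2.07-fold in shCtrl, so the pair does not cover like intervals. OAS3 had 3'UTR peaks of 4.66-fold and 4.37-fold over nearly the same bases. JAK1 was alike in its 3'UTR pair, 2.87-fold in shALKBH5 and 2.77-fold in shCtrl. A second JAK1 3'UTR peak (chr1:64864933-64866946, 1.46-fold) and a 5'UTR peak were in the shCtrl list only. The former lies at the JAK1 entry of the differential table. The 5'UTR peak (7.66-fold) spanned 78309 bases and had a weak score, a log10 FDR of -0.627.

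Of 17 pairs in a 5'UTR, 10 were lower and 7 higher in shALKBH5. The peak was 18.6-fold against 39.6-fold in IRF3, 9.8-fold against 23-fold in NLRC5 and 2.49-fold against 7.02-fold in ISG20. In NLRC5, at a mean of 0.823 FPKM, the shALKBH5 span also covers a second shCtrl peak of 7.87-fold, labelled as intron. Among the higher were ERAP2, 13.5-fold against 5.92-fold, and CD274, 22-fold against 5.11-fold, over 12400 and 12699 bases at an RNA level near 0.5 FPKM. The TAP1 3'UTR peak (chr6:32845209-32845478, - strand) and a PSMB9 intron peak (chr6:32845184-32845483, + strand) cover nearly the same interval on opposite strands and cannot be told apart here.

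Of the 45 members with a peak in either list, 10 appear in the deposited table of differential peaks, which holds 27.3% of all gene names with a peak. These were CIITA, GBP2, HLA-DRA, HLA-E, IFIT1, IFNGR2, ISG20, JAK1, PDCD1LG2 and STAT2, with 13 peaks, 11 of them in the 3'UTR. Of these 10 genes, 6 rose in input RNA, IFNGR2 and JAK1 fell, and IFIT1 and PDCD1LG2 were not tested. Of all tested members 46.3% rose, and of all genes 34.7%.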

How the data were processed

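Input RNA and m6A immunoprecipitates of A375 cells had been sequenced, with 3 input and 3 IP libraries per group. The authors deposited FPKM per input library, and 1 list of m6A peaks per group that holds for each peak its ratio of IP to input (fold enrichment) and log10 p and FDR values, which were treated as a score and used only as a filter. The aligner, peak caller and pooling are not given in the sources used here. The labels name the build mm10, but the gene IDs are human and 21683 of 21699 genes matched by name overlapped their RefSeq GRCh38.p14 span, as did all 46 members. The fold changes, p-values and calls of the authors' own comparisons, in the expression and differential peak tables, were not used. From the latter only positions, gene names and regions were taken. Peak starts were changed to count from 1.

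Genes whose mean reached 0.5 FPKM across the 6 input libraries were tested on log2(FPKM + 0.1) with limma 3.58.1 (R 4.3.3; lmFit, eBayes with trend, two-sided, Benjamini-Hochberg over 12985 genes) because the count test of the study's methods needs counts. Fold changes are on the log2(FPKM + 0.1) scale and understate changes of low genes. Low FPKM values showed no steps of whole reads, so the depth is unknown and the number of libraries limits the precision. The labels do not say that replicates were separate cultures, so the p-values measure only the spread between libraries, which may be technical. Python 3.11.15, pandas 2.3.3, numpy 2.4.6, scipy 1.17.1 and matplotlib 3.10.9 were used for the other steps.

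The members and lists were chosen with earlier results of these data known. Values in every library are given for members called without overlap of the groups and with a log2 fold change of at least 0.5 in size, for the highest member of each role, and for members under the filter, IFI27 apart. Of the other pathway genes, the 6 with the largest rises, the 6 with the largest falls and PSMB5, PSMB6 and PSMB7 are named, and the further ones (CD74, HLA-DRB5, HLA-DQA1, promoter factors, TYK2, MICA, MICB, ULBP3, IDO1 and the CXCL genes) were named with their values known. Expression was refitted with a pseudocount of 1 or 0.01, without the filter or with it at 1 FPKM, after rescaling by the median ratio, and with eBayes without trend, the replicate number as a block, and each library was left out in turn. Peaks were also compared when at least 2-fold with an FDR of at most 0.01, and by a reciprocal overlap of 50%. Motifs within peaks were not analysed here.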

Additional observations from a re-analysis of the deposited data

How the results depend on the processing

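Of the 25 called members, 18 kept their call under every alternative in which they were tested: HLA-B, HLA-E, TAP1, TAPBP, NLRC5, CIITA, HLA-DRA, STAT2, ISG20, IFIT3, IFI6, IFI35, OAS1 and GBP2 as higher, and PSMB10, IFNAR1, JAK1 and OAS3 as lower. Leaving out each library gave 15 to 20 members higher and 5 to 8 lower, and 31 to 34 other pathway genes higher and 12 to 17 lower. After median ratio rescaling 10 members were lower in place of 6. The sign of the log2 fold change turned for 6 members under these alternatives, none of them called in the reported test. After rescaling B2M was at -0.0397, IRF3 at -0.00252 and IFIT5 at -0.0200. Leaving out each library gave B2M -0.000702 to 0.069, IFNAR2 -0.103 to 0.0693, IRF9 -0.815 to 0.151, IFIT5 -0.0672 to 0.245 and CD274 -0.205 to 0.0735. Without shCtrl replicate 2, IRF9 turned to 0.15. The cause was not tested.

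Samples that share a replicate number did not deviate together (correlations 0.02, -0.05 and 0.06), so the numbers do not pair the samples. With the replicate block 18 members were higher and 5 lower, 32 other pathway genes were higher and 12 lower, and the median log2 fold change of the members was 0.17. TAP2, HLA-F and IFI44 lost their calls (limma, adjusted p = 0.063, 0.059 and 0.057) and ISG15 gained one (0.032). With stricter peaks 35 and 36 members had a peak, and 86.3% of shALKBH5 peaks overlapped a shCtrl peak, against 82.1% over all genes. Of the stricter shCtrl peaks 83.5% overlapped a shALKBH5 peak, against 83.6% over all genes. With a reciprocal overlap of 50% the shares were 49.1% and 50.9%, against 51.6% and 53.7% over all genes, and the median log2 difference of enrichment was -0.17, against -0.05. Unknown depth limits what can be said of members under 0.5 FPKM.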

Other observations

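Ligands of NKG2D, the receptor by which natural killer cells and cytotoxic T cells recognise stressed cells, moved in both directions. All 4 listed ligands were called, by a rule that called 61.0% of all genes. MICA was at 6.86, 7.19 and 6.71 FPKM in shALKBH5 and at 4.35, 4.31 and 4.09 FPKM in shCtrl, a log2 fold change of 0.69 (SE 0.0575, limma, adjusted p = 4.45e-05). ULBP3 rose by 0.75 on the log2 scale from a low level, and MICB rose by 0.30, a call that was lost without shALKBH5 replicate 2 or 3 (0.26 each), without shCtrl replicate 2 (0.24) or 3 (0.27) and after rescaling (0.22), and with no filter, with the replicate block and without a trend (adjusted p = 0.086, 0.075 and 0.051, limma). ULBP2 was at 2.64, 3.27 and 2.83 FPKM in shALKBH5 and at 5.59, 4.55 and 5.21 FPKM in shCtrl, a log2 fold change of -0.79 (SE 0.106, limma, adjusted p = 0.00049).

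CXCL10, a chemokine that draws T cells, was below the filter. It stood between 0.341 and 0.414 FPKM in the shALKBH5 libraries and is listed at 0 in each shCtrl library, so no fold is given. With no filter it was called higher (limma, adjusted p = 0.00018), as was CXCL11 at 0.0766 ± 0.0345 against 0.00592 ± 0.0103 FPKM (SD, n = 3 each), with a log2 fold change of 0.72 (limma, adjusted p = 0.024). CXCL9 and IDO1 were not called with no filter.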
